A study of Homo sapiens with 10 samples.

Results

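HCT116, a human colorectal carcinoma cell line, was profiled with and without coculture with THP1, a monocytic leukaemia line, in a shared culture whose medium reached both cell types while the cells themselves did not touch. The comparison took 4 of the 10 one-colour Affymetrix arrays of the series, by their titles. The 2 arrays with coculture were HCT116 with THP1 and HCT116 with THP1 and vitamin D3, and the 2 arrays without it were HCT116 alone and HCT116 with vitamin D3 for 24 hours. Of the other 6 arrays, 4 hold Hke3, a line derived from HCT116, in the same 4 conditions, and 2 hold THP1 alone and with vitamin D3. With 1 array per condition, the agreement of the 2 HCT116 pairs stood in for replication, and p-values measure the spread between pairs, which may be technical. The labels call the THP1 cells macrophages but do not say whether they were differentiated. They give MEM with serum for the cancer lines and RPMI with serum for THP1, and give neither the medium nor the length of the shared culture. The arrays without coculture held no second cell population.

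Cells answer a shortage of amino acids, misfolded protein in the endoplasmic reticulum (ER) and other stresses by phosphorylating the translation factor eIF2, which slows protein synthesis and favours translation of the transcription factor ATF4. ATF4 induces genes of amino acid uptake and tRNA charging, and the transcription factors DDIT3 (also called CHOP) and ATF3. The ER sensors ATF6 and ERN1 add genes that fold proteins in the ER or remove misfolded ones, and the tumour suppressor p53 induces cell cycle inhibitors and death receptors.

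The arrays carried the expression of the labelled cells. Of 17 epithelial genes on the array, 15 lay above 6.18 log2, the median of all deposited values, in each of the 4 HCT116 arrays. The 15 macrophage markers had medians of 5.60 and 5.56 log2 in the cocultured arrays and 5.50 and 5.64 log2 in the arrays without coculture, against 9.74 and 11.20 log2 in the THP1 arrays. SRGN, a proteoglycan core protein of blood cells and the brightest marker in THP1 (13.90 and 14.05 log2), had 4.42 and 4.37 log2 in the cocultured arrays and 3.94 and 4.17 log2 in the others. Of 6 macrophage markers bright enough to be tested, 0 passed the limma test between HCT116 with and without coculture, and 0 had an unadjusted p under 0.05. ITGAM, 1 of the 6, could not show THP1 RNA. It had 6.73 and 6.72 log2 in THP1 and 6.74 to 7.01 log2 in the HCT116 arrays. SRGN was tested only through Hke3 in coculture with vitamin D3, with 6.28 log2 there and 4.38 log2 in Hke3 with vitamin D3. The difference between 3' and 5' control probe sets, which grows as RNA quality falls, was 0.16 and 0.23 log2 for ACTB in the cocultured arrays and 0.30 and 0.25 log2 in the arrays without coculture. It was smaller in both cocultured arrays, and its part in the results below was not tested. The same difference for GAPDH was -0.10 log2 in all 4. CYP24A1, the vitamin D-degrading enzyme that vitamin D induces, had 10.68 log2 in coculture and 9.70 log2 in coculture with vitamin D3, against 9.99 log2 alone and 11.43 log2 with vitamin D3, so the vitamin D3 labels go against it in the cocultures. A mean over the 2 pairs does not depend on those labels. The pairing, the correlation of the pairs, the standard errors and the p-values below do use them. Whether those labels are right was not tested.

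**Figure D1:**
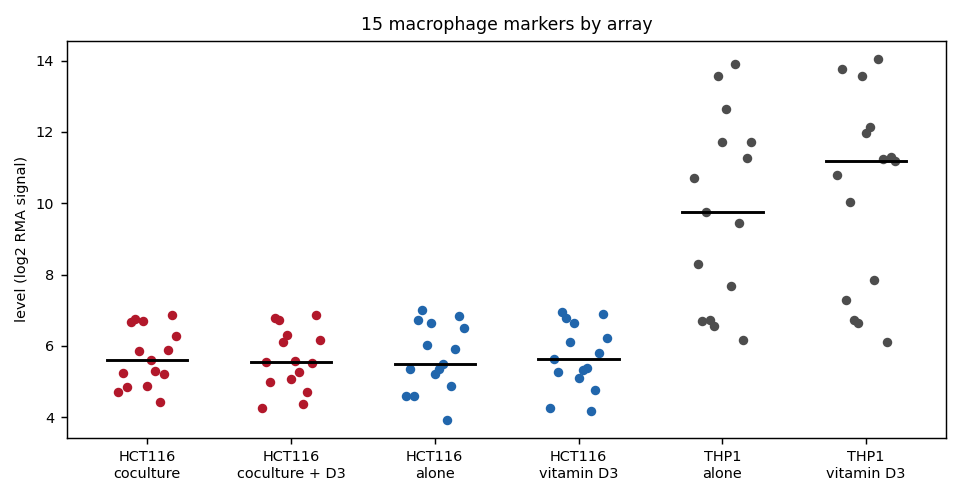
Level of each of 15 macrophage markers (points, log2 RMA signal) in the 4 HCT116 arrays and the 2 THP1 arrays, with the median of each array as a bar. The HCT116 medians lie between 5.50 and 5.64 log2 with or without coculture, and those of THP1 at 9.74 and 11.20 log2.

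Coculture changed 2113 of 13246 genes tested in HCT116 (16.0%; limma, adjusted p under 0.05), with 1017 higher (7.68%) and 1096 lower (8.27%). Changes of more than 2-fold were rises, in 33 genes, and 0 genes fell by as much. All 2113 had the same sign in both pairs, and the arrays with and without coculture did not overlap for 2112 of them. With 2 arrays against 2, such a separation is common, since 25.3% of all genes tested were separated upwards and 33.0% downwards. For a gene past the threshold it is no further support, also where later paragraphs describe it. Across the 13246 genes, the differences of the 2 pairs correlated with Pearson r = 0.655 and Spearman rho = 0.576. The number of genes past the threshold was 134 without the array of HCT116 in coculture with vitamin D3, 140 without HCT116 with vitamin D3, 390 without HCT116 alone and 524 without HCT116 in coculture, and 1060 when the 4 HCT116 arrays were fitted on their own. Counts of list members below stand against 16.0% of all genes tested that passed, 7.68% higher and 8.27% lower. Leaving out an HCT116 array lowered the count over all genes, so a lower count in a list is not by itself a trait of its members. In the following sentences each pair of levels gives the array labelled without vitamin D3 and then the one labelled with it. The sign ± gives the standard error of the fit.

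**Figure D2:**
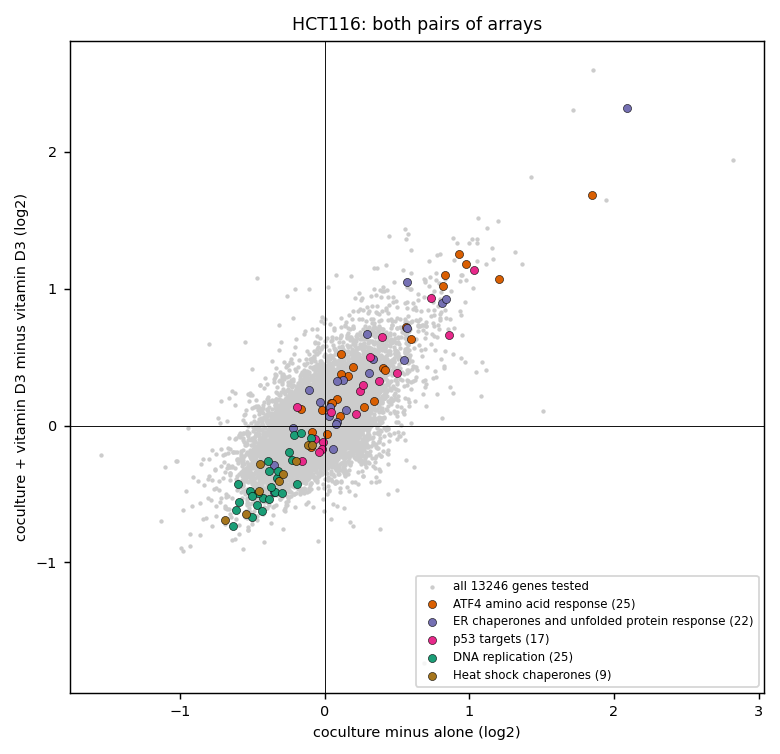
Difference between the arrays with and without coculture in HCT116 for each of 13246 genes, with the pair without vitamin D3 on the x axis and the pair with it on the y axis (log2). Colours mark 5 gene lists; DNA replication and heat shock genes lie below 0 in both pairs, and the largest rises lie above 1 in both.

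The largest rises were those of genes of varied function. NRP1, the receptor neuropilin-1 for semaphorins and VEGF, had 7.17 and 6.85 log2 in coculture, against 4.35 and 4.91 log2 without it. Its rise was 2.38 ± 0.22, an approximate size (adjusted p = 0.00201). Its level lay under 6.18 log2 in every colon cancer array other than these cocultured ones, so NRP1 entered the test only through the group where it was high, and its adjusted p is no independent support. The same held in all for 8 of the 2113 genes, 2 of them among the 33 that rose by more than 2-fold. LAMP3, a lysosomal membrane protein induced by the unfolded protein response, had 9.19 and 9.31 log2 in coculture and 7.33 and 6.71 log2 without it, a rise of 4.68-fold (2.23 ± 0.18, adjusted p = 0.00162). CLGN, the ER chaperone calmegin, had 8.80 and 8.82 log2 in coculture and 6.70 and 6.49 log2 without it, a rise of 4.62-fold (2.21 ± 0.081) with the smallest adjusted p of all genes, 0.000102. For these 3 genes the lowest cocultured array stood more than 1 log2 above the highest array without coculture. The THP1 arrays, alone and with vitamin D3, had 7.27 and 7.44 log2 for NRP1 and 8.62 and 8.37 log2 for CLGN. For LAMP3 they had 5.88 and 5.62 log2. Any part of THP1 RNA in these levels was not tested. LURAP1L, a little-studied gene, had 8.80 and 9.17 log2 in coculture and 7.08 and 6.86 log2 without it (4.03-fold, 2.01 ± 0.13, adjusted p = 0.00127). ARRDC4, an arrestin-related gene of glucose handling, had 10.22 and 10.08 log2 in coculture and 8.28 and 8.43 log2 without it (3.47-fold, 1.80 ± 0.12, adjusted p = 0.00127). Again the cocultured arrays lay apart from the others by more than 1 log2 for both genes.

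IL20RB, a chain of the receptors for interleukins of the IL-20 family, rose 3.08-fold in coculture (7.88 and 7.99 log2, against 6.45 and 6.17 log2 without it; 1.62 ± 0.12, adjusted p = 0.00127). Of 9 receptor genes of the IL-6 and IL-20 families tested, from 11 listed, IL10RB, a shared chain of the same family of receptors, also rose (0.42), while OSMR (0.29), LIFR (0.25) and IL22RA1 (-0.22) did not pass. Among 14 neuropilin, semaphorin and plexin genes tested, from 17 listed, the semaphorin SEMA4B rose beside NRP1 (0.50). The other 12 did not pass, and the list's median was 0.016 log2, or -0.032 to 0.087 log2 without each HCT116 array in turn. Of all genes tested 16.0% passed, against 14.3% of this list and 22.2% of the receptor list. Without each array in turn, 1 or 2 genes of either list passed. The remaining genes among the 14 largest rises gained between 1.21 and 1.35 log2. They were SMIM14, a small membrane protein (1.35), SLFN5, an interferon-inducible Schlafen protein (1.29), the transcriptional co-regulator IFRD1 (1.29), the efflux transporter ABCC3 (1.28), ANKRD29 (1.27), the GTP-binding protein GTPBP2 (1.23) and the adhesion receptor ADGRF1 (1.21). For ABCC3 the other bright probe sets gave smaller differences, 0.12 to 0.88 log2, and for GTPBP2 0.21 and 1.10 log2. Of the 125 named genes past the threshold in HCT116, 74 had another bright probe set, and for 30 of these at least 1 such set gave a difference more than 1.5 times smaller or of the other sign.

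**Figure D3:**
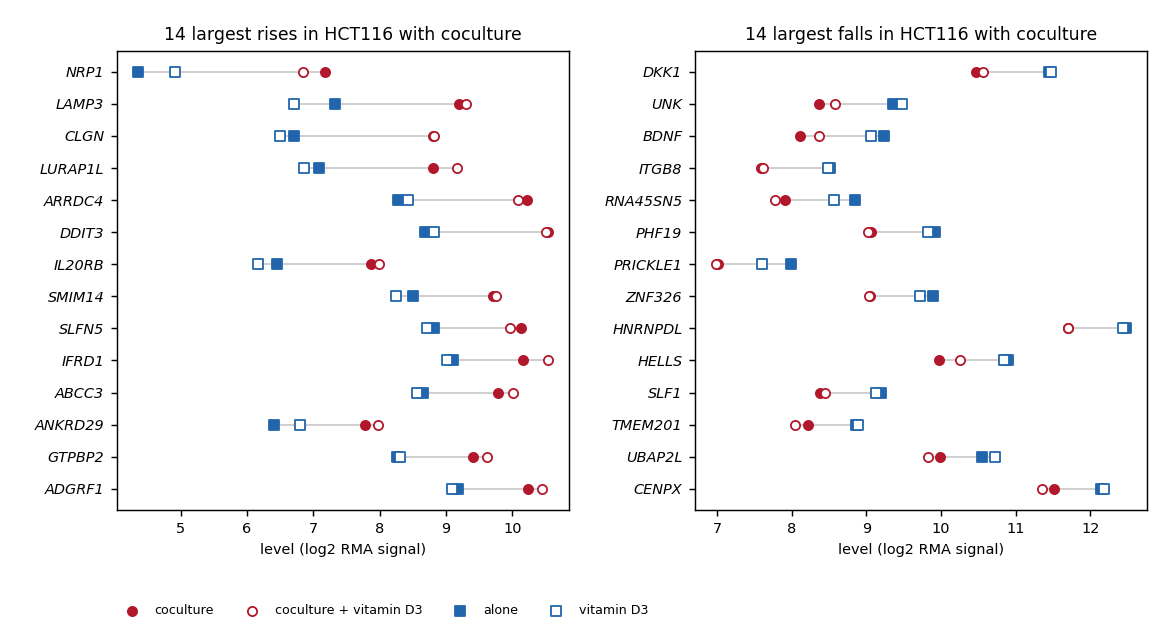
Level (log2 RMA signal) of the 14 genes with the largest rises and the 14 with the largest falls in each HCT116 array; circles are arrays with coculture, squares arrays without it, and open symbols carry the vitamin D3 label. Circles and squares do not overlap for any of the 28 genes, and the gaps are wider among the rises. The genes were chosen for large changes past the threshold, so this separation follows from the choice.

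Part of the ATF4 amino acid response list rose. Of 25 tested, from 27 listed, 11 rose, 0 fell and 14 did not pass, 4 members lay below 0, and the list had a median of 0.26 log2, against -0.021 log2 over all genes tested. DDIT3, the stress-induced transcription factor, had 10.53 and 10.51 log2 in coculture, against 8.68 and 8.83 log2 without it (3.40-fold, 1.77 ± 0.078, adjusted p = 0.0002). SESN2, a leucine-sensing inhibitor of mTORC1, had 9.62 and 9.56 log2 in coculture and 8.41 and 8.49 log2 without it (1.14 ± 0.094, adjusted p = 0.00162). TRIB3, a pseudokinase that binds ATF4 and AKT, had 12.19 and 12.32 log2 in coculture and 11.26 and 11.07 log2 without it (1.09 ± 0.094, adjusted p = 0.00162). No array with coculture overlapped one without it for these genes. CHAC1, which degrades glutathione, had 9.82 and 9.92 log2 in coculture and 8.84 and 8.74 log2 without it (1.08 ± 0.083, adjusted p = 0.00127). ATF3, a transcription factor of the same response, had 9.62 and 9.76 log2 in coculture and 8.79 and 8.66 log2 without it (0.97 ± 0.14, adjusted p = 0.00746). The levels of both again stood apart by array, though ATF3 lost the threshold without either array labelled with vitamin D3 and its other bright probe sets gave 0.042 and 0.73 log2. ATF4 itself had 13.58 and 13.55 log2 in coculture and 13.18 and 13.13 log2 without it (0.41 ± 0.073, adjusted p = 0.0132). The count of 11 was 6 without HCT116 with vitamin D3 or without the coculture with vitamin D3, 8 without HCT116 alone or without the coculture alone, and 10 with the HCT116 arrays fitted on their own.

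Enzymes of asparagine and serine synthesis in the same list did not pass. Of these, all chosen after their values were seen, the asparagine synthetase ASNS differed by 0.11 log2 (adjusted p = 0.331), the serine synthesis enzyme PHGDH by -0.022 (adjusted p = 0.857) and PSAT1, of the same pathway, by -0.13 (adjusted p = 0.293). The transcription factors CEBPG (0.92) and CEBPB (0.64), partners of ATF4, and PPP1R15A (0.61), the subunit that directs the dephosphorylation of eIF2, all rose; these were chosen after their values were seen.

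Of 10 amino acid transporters tested, from 12 listed, 4 rose and 0 fell, and all 10 lay above 0, with a median of 0.19 log2. SLC7A11, which brings in cystine, had 11.72 and 11.85 log2 in coculture and 11.25 and 11.12 log2 without it (0.60 ± 0.081, adjusted p = 0.00645). SLC1A4, a carrier of neutral amino acids (0.31), SLC3A2, the heavy chain that pairs with SLC7A11 (0.30), and SLC7A1, a carrier of cationic amino acids (0.29), rose by less, and another bright probe set of SLC7A1 pointed the other way. Of 17 cytosolic aminoacyl-tRNA synthetases tested, from 20 listed, which load amino acids onto tRNAs, 5 rose and 0 fell, with a median of 0.079 log2. SARS1, for serine, rose most (12.65 and 12.60 log2 in coculture, against 11.99 and 11.87 log2 without it; 0.69 ± 0.064, adjusted p = 0.00201). AARS1, for alanine, rose by 0.49, LARS1, for leucine, by 0.36, CARS1, for cysteine, by 0.27, and IARS1, for isoleucine, by 0.25 log2. Of the transporters 40.0% passed and of the synthetases 29.4%, against 16.0% of all genes tested. Without each HCT116 array in turn, fewer members of both lists passed, as over all genes tested. The transporter median then lay between 0.15 and 0.27 log2. The synthetase median was 0.0067 log2 without HCT116 with vitamin D3 and 0.040 without the coculture with vitamin D3. It was 0.12 without the coculture alone and 0.13 without HCT116 alone.

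In the ER, 9 of 22 chaperone and unfolded protein response genes tested, from 23 listed, rose and 2 fell, with a median of 0.17 log2. CLGN led the list. SEL1L, which carries misfolded proteins to ER-associated degradation, had 10.16 and 10.18 log2 in coculture and 9.32 and 9.26 log2 without it (0.88 ± 0.065, adjusted p = 0.00127). The sensor ATF6 had 10.44 and 10.47 log2 in coculture and 9.63 and 9.58 log2 without it (0.85 ± 0.066, adjusted p = 0.00127). The sensor and nuclease ERN1 had 8.66 and 9.09 log2 in coculture and 8.09 and 8.04 log2 without it (0.81 ± 0.16, adjusted p = 0.017). The levels of all 3 separated by coculture, by the widest margin for SEL1L and ATF6, and the other bright probe sets of ERN1 gave only 0.16 to 0.29 log2. Those of ATF6 gave 0.42 to 0.63 log2. HERPUD1, another component of ER-associated degradation, had 11.67 and 11.82 log2 in coculture and 11.10 and 11.11 log2 without it (0.64 ± 0.074, adjusted p = 0.00437), while its other bright probe set gave 0.11 log2. The chaperones HYOU1 (0.51) and HSPA5, also called BiP (0.35), and the transcription factor XBP1 (0.41) rose too, and the 2 that fell were CALR, calreticulin (-0.32), and the chaperone cofactor SDF2L1 (-0.42); these 5 genes were chosen after their values were seen. Without each HCT116 array in turn, 3 to 5 members rose and 0 or 1 fell.

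Promoters are shown for 3 rising genes because their upstream sequence holds the elements that ATF4 and the unfolded protein response factors are known to bind. The windows are RefSeq sequence of build GRCh38.p14, 250 bases upstream of the transcript start, read on the strand of the gene. Capitals mark matches, on either strand, to TGATGNAA, the core of the C/EBP-ATF composite element, or to ER stress element II, the letters ATTGG and CCACG 1 base apart. The search rule covered DDIT3, SESN2, TRIB3 and CHAC1 with TGATGNAA only. HERPUD1, HYOU1, the other genes searched and both ER stress elements were chosen after values were seen. The counts of windows below are therefore descriptive, and enrichment was not tested.
CHAC1, chr15:40953221-40953470, plus strand: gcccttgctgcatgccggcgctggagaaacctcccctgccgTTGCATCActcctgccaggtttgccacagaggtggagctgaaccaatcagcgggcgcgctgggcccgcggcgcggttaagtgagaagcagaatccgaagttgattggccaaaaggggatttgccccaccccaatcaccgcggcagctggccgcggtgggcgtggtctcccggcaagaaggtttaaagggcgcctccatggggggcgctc
HERPUD1, chr16:56931892-56932141, plus strand: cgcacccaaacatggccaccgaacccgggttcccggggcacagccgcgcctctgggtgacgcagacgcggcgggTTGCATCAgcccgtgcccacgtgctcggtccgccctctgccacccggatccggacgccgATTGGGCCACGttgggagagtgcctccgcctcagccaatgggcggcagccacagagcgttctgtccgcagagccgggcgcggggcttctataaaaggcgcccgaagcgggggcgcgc
HYOU1, chr11:119057206-119057455, minus strand: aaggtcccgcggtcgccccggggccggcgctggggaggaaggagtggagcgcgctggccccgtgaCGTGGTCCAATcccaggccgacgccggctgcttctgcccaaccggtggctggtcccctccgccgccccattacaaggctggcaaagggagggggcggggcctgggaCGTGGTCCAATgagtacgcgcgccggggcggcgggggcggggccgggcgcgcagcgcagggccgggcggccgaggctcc
TGATGNAA occurred in 3.14% of 35116 RefSeq promoter windows of this length. The 11 ATF4 response genes that rose had 20 windows between them, and 3 windows held it, 1 each of CHAC1, ATF3 and CEBPG; no match was found for DDIT3, SESN2 or TRIB3. ER stress element II occurred in 0.0513% of all windows and in 2 of the 10 windows of the 9 ER genes that rose, once in HERPUD1, beside a TGATGNAA match, and at 2 places in HYOU1. The ER stress element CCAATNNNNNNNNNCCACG occurred in 0.0740% of all windows and in 2 of these 10, of XBP1 and HSPA5. A match is a description of these letters, not of binding.

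Of 17 p53 targets tested, from 20 listed, 9 rose and 0 fell, with a median of 0.25 log2. GDF15, a secreted stress cytokine, had 13.09 and 13.17 log2 in coculture, against 12.05 and 12.03 log2 without it (1.09 ± 0.075, adjusted p = 0.00127). TNFRSF10B, a receptor for the death ligand TRAIL that DDIT3 also induces, had 11.77 and 11.93 log2 in coculture and 11.04 and 11.00 log2 without it (0.83 ± 0.079, adjusted p = 0.00211). CDKN1A, the cell cycle inhibitor p21, had 11.09 and 10.97 log2 in coculture and 10.23 and 10.31 log2 without it (0.76 ± 0.073, adjusted p = 0.00217). All 3 were higher in both cocultured arrays than in either other array. The RNA-binding gene ZMAT3 (0.52) and TP53INP1, which acts in autophagy and cell death (0.44), rose as well. Another bright probe set of TP53INP1 gave 0.056 log2, and those of ZMAT3 gave 0.34 to 0.72 log2. Not all targets moved, since MDM2, the ubiquitin ligase of p53, differed by -0.029 log2 (adjusted p = 0.876) and the proapoptotic BAX by -0.081 (adjusted p = 0.589), both chosen after their values were seen. The count of 9 was 3 or 4 without each HCT116 array in turn. Among 13 death receptor genes tested, from 15 listed, the inhibitors of apoptosis XIAP (0.36) and BIRC2 (0.28) and the TNF receptor TNFRSF1A (0.33) rose beside TNFRSF10B, and the proapoptotic BID fell (-0.26); without each HCT116 array in turn 1 or 2 of the 13 rose and 0 fell.

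Of 17 immediate early genes tested, from 19 listed, which growth factors and stress switch on within minutes, 8 rose and 0 fell, with a median of 0.37 log2. The growth-arrest gene BTG1 had 10.98 and 11.28 log2 in coculture and 10.15 and 10.21 log2 without it (0.95 ± 0.083, adjusted p = 0.00165). EGR1, a zinc finger transcription factor, had 13.46 and 13.60 log2 in coculture and 12.66 and 12.83 log2 without it (0.79 ± 0.12, adjusted p = 0.00955). JUN, a subunit of AP-1, had 9.88 and 10.19 log2 in coculture and 9.17 and 9.35 log2 without it (0.78 ± 0.11, adjusted p = 0.00677). For these 3 genes the arrays separated by coculture. KLF4, a transcription factor of epithelial differentiation, rose by 0.79, and EGR3 by 1.15, an approximate size because its level without coculture lay under 6.18 log2. The count of 8 was 1 to 4 without each HCT116 array in turn, and the median lay between 0.24 log2, without the coculture with vitamin D3, and 0.53 log2.

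Of 16 ERK pathway output genes, 4 rose and 0 fell: the ERK phosphatase DUSP6 (12.83 and 12.91 log2 in coculture, against 12.20 and 12.14 log2 without it; 0.70 ± 0.082, adjusted p = 0.00453), the stress and survival gene IER3 (0.58), the feedback inhibitor SPRY4 (0.57) and the ETS factor ETV1 (0.40). Of 7 EGF family ligands and receptors tested, from 11 listed, HBEGF (0.84) and BTC (0.71), both ligands of the EGF receptor, rose. TGFA (0.43), EGFR (0.39) and EREG (0.25) did not pass, with adjusted p between 0.0724 and 0.0764. A different bright probe set of HBEGF, and likewise of EGFR, pointed the other way. Of the ERK list 25.0% passed and of the EGF list 28.6%, against 16.0% of all genes tested. Without each HCT116 array in turn, 0 to 3 of the ERK genes and 0 to 2 of the EGF genes passed.

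Most DNA replication genes fell. Of 25 listed and tested, 20 fell and 0 rose, all 25 lay below 0, and the median was -0.41 log2. GINS2, a subunit of the replicative helicase, had 10.65 and 10.51 log2 in coculture, against 11.28 and 11.24 log2 without it (-0.68 ± 0.079, adjusted p = 0.00435), and its other bright probe sets gave -0.25 and -0.20. The flap endonuclease FEN1 had 11.54 and 11.41 log2 in coculture and 12.15 and 12.02 log2 without it (-0.61 ± 0.071, adjusted p = 0.00437). ORC1, of the origin recognition complex, had 8.48 and 8.43 log2 in coculture and 9.07 and 8.99 log2 without it (-0.58 ± 0.063, adjusted p = 0.00358). The cocultured arrays were the lower ones throughout. The polymerase subunit POLE2 fell by 0.59 and the helicase subunit MCM5 by 0.53 log2. Of 24 mitosis genes listed and tested, 16 fell and 0 rose, with a median of -0.33 log2. The mitotic kinase PLK1 had 9.65 and 9.46 log2 in coculture and 10.07 and 10.32 log2 without it (-0.64 ± 0.11, adjusted p = 0.0113). CDC20, which activates the anaphase-promoting complex, fell by 0.54, the spindle motor KIF11 by 0.51, cyclin A2 (CCNA2) by 0.49 and the checkpoint kinase BUB1 by 0.48 log2. Another bright probe set of BUB1 pointed the other way. Without each HCT116 array in turn, fewer genes of both lists passed, as over all genes tested. The medians stayed between -0.46 and -0.40 log2 for replication and between -0.33 and -0.31 log2 for mitosis. In bulk arrays, fewer cycling cells and less RNA per cell cannot be told apart.

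Of 9 heat shock chaperones of the cytosol and mitochondria tested, from 12 listed, 7 fell, and all 9 lay below 0, with a median of -0.36 log2. HSPH1, a nucleotide exchange factor of the HSP70 system, had 11.04 and 11.02 log2 in coculture and 11.73 and 11.71 log2 without it (-0.69 ± 0.085, adjusted p = 0.00479). HSPE1, the mitochondrial co-chaperonin, had 12.39 and 12.37 log2 in coculture and 12.93 and 13.02 log2 without it (-0.60 ± 0.068, adjusted p = 0.00401). For both genes the arrays within each group lay close together and the groups apart. The co-chaperones DNAJA1 (-0.47), BAG3 (-0.36) and DNAJB1 (-0.36) fell by less. Without each HCT116 array in turn, 0 to 3 of the 9 passed.

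The largest falls came from genes of varied function. DKK1, a secreted inhibitor of Wnt signalling, had 10.47 and 10.56 log2 in coculture, against 11.45 and 11.48 log2 without it (0.52 times the level without coculture, -0.95 ± 0.087, adjusted p = 0.00201). Of 11 Wnt target genes tested, from 17 listed, DKK1 was the 1 that fell, and SOX9, a transcription factor of the crypt base, rose (0.41). The share that passed was 18.2% of this list, against 16.0% of all genes tested. RNF43 (0.22) and NKD1 (-0.13) did not pass. DKK1 still passed without each HCT116 array in turn, and SOX9 did not. UNK, an RNA-binding protein, had 8.37 and 8.58 log2 in coculture and 9.36 and 9.48 log2 without it (-0.94 ± 0.085, adjusted p = 0.00196), but its other bright probe sets differed by only -0.19 and -0.14. BDNF, the brain-derived neurotrophic factor, had 8.11 and 8.37 log2 in coculture and 9.24 and 9.07 log2 without it (-0.92 ± 0.18, adjusted p = 0.0165), and the integrin ITGB8 had 7.58 and 7.61 log2 in coculture and 8.51 and 8.49 log2 without it (-0.90 ± 0.14, adjusted p = 0.00943). The 4 genes were lower in both cocultured arrays. The other 10 fell by 0.73 to 0.86 log2: the ribosomal RNA precursor RNA45SN5, the Polycomb-associated PHF19, the cell polarity gene PRICKLE1, ZNF326 and HNRNPDL, which act in RNA processing, the chromatin remodeller HELLS, the DNA repair factor SLF1, the nuclear membrane protein TMEM201, UBAP2L, which acts in stress granules, and CENPX, a protein of the kinetochore and of DNA repair. SLF1 and CENPX had no other bright probe set. For each of the others, at least 1 other bright set gave a smaller fall. The smallest was -0.28 log2 for RNA45SN5, -0.13 for PHF19, -0.025 for PRICKLE1 and -0.30 for ZNF326. It was -0.087 for HNRNPDL, -0.16 for HELLS, -0.078 for TMEM201 and -0.099 for UBAP2L.

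Inflammatory and interferon genes gave mixed results. Of 16 NF-kB and IL-1 response genes tested, from 21 listed, the chemokines CXCL8 (0.999) and CXCL2 (0.65), IER3 and the NF-kB subunit NFKB2 (0.37) rose, and NFKBIE, an inhibitor of NF-kB, fell (-0.26). Both chemokines were dim, so their sizes are approximate: CXCL8 had 5.70 and 6.06 log2 in coculture and 5.14 and 4.62 log2 without it. The list's median was 0.19 log2, and -0.11 log2 among genes above the 75th percentile of all values. Of 16 interferon response genes tested, from 24 listed, 4 rose, with a list median of 0.18 log2. They were the RNA sensor IFIH1 (0.68), the factors IRF7 (0.65) and IRF9 (0.59), and the immunoproteasome subunit PSMB9 (0.41). The share that passed was 31.2% of the NF-kB list and 25.0% of the interferon list, against 16.0% of all genes tested. Without each HCT116 array in turn, 0 to 3 of the NF-kB genes and 0 or 1 of the interferon genes passed.

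Of 13 NRF2 targets tested, from 16 listed, which answer oxidative stress, 6 rose and 0 fell, with a median of 0.16 log2. SLC7A11 belongs to this list and to the amino acid transporters. The quinone reductase NQO1 had 13.21 and 13.17 log2 in coculture and 12.77 and 12.71 log2 without it (0.45 ± 0.072, adjusted p = 0.01), GCLC, which makes glutathione, rose by 0.45, and SRXN1, which repairs peroxiredoxins, by 0.34 log2. AKR1C3, a steroid and aldehyde reductase, rose by 0.65, an approximate size at levels under 6.18 log2. Of 16 lysosome and autophagy genes 5 rose: LAMP3, the autophagosome protein MAP1LC3B (11.71 and 11.93 log2 in coculture, against 10.84 and 10.95 log2 without it; 0.93 ± 0.081, adjusted p = 0.00165), the proteases CTSB (0.45) and CTSL (0.30), and WIPI1, which acts in autophagosome formation (0.44). The protease CTSD, chosen after its values were seen, was the 1 that fell (-0.28). Of the NRF2 targets 46.2% passed and of the lysosome and autophagy genes 37.5%, against 16.0% of all genes tested. Without each HCT116 array in turn, 0 or 1 of the NRF2 targets and 2 of the lysosome genes passed.

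Epithelial genes passed about as often as all genes. Of 15 tested, from 18 listed, 2 rose and 0 fell (13.3%, against 16.0% of all genes): the splicing factor ESRP1 (0.43) and E-cadherin (CDH1, 0.40). With any 1 HCT116 array left out, 0 or 1 passed. Of the others, the keratin KRT8 differed by -0.31 log2 (adjusted p = 0.0507). Of 8 mesenchymal genes tested, from 15 listed, only the transcription factor TWIST1 rose (0.70, an approximate size), or 12.5% of the list. Among the 8 colon cancer arrays, TWIST1 was above 6.18 log2 in the cocultured HCT116 ones only. It too was therefore tested only through the group where it was high. In the THP1 arrays it had 9.54 and 9.27 log2. Fibronectin (FN1) had 9.32 and 8.62 log2 in coculture and 7.81 and 8.51 log2 without it and did not pass (adjusted p = 0.257), and another bright probe set of it pointed the other way. Of 10 genes of the vitamin D list tested, from 13 listed, the protease inhibitor SERPINB1 rose (0.81, adjusted p = 0.00593). That was 10.0% of the list, and other bright probe sets of SERPINB1 gave between 0.091 and 0.84 log2. VDR, the vitamin D receptor, differed by 0.13 log2 (adjusted p = 0.516) and CYP24A1 by -0.52 log2 (adjusted p = 0.654). TWIST1 and SERPINB1 lost the threshold without either array labelled with vitamin D3.

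**Figure D4:**
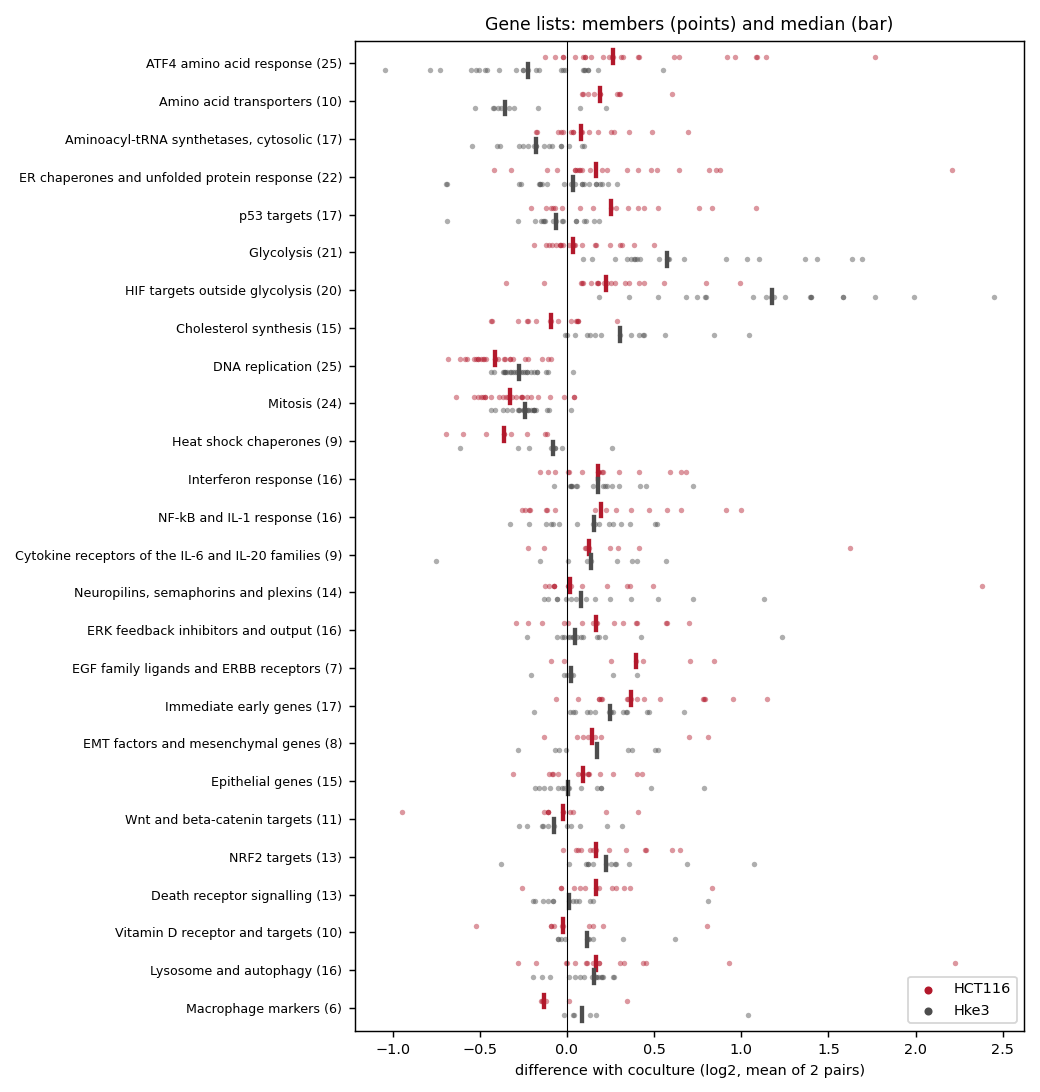
Difference with coculture (log2, mean of 2 pairs) of each tested member of 26 gene lists (points) and the list median (bar), with HCT116 in red above Hke3 in grey; the number of tested members stands in brackets. The replication list has its median at -0.41 in HCT116 and -0.28 in Hke3, and the ATF4 list at 0.26 and -0.23. The hypoxia-inducible list has its median at 0.22 in HCT116 and 1.18 in Hke3.

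Hke3 gave the same contrast in a related line, and the difference between the lines was tested for each gene. In Hke3, coculture changed 941 of 13246 genes (7.10%). The difference itself passed for 551 genes (4.16%), with the larger signed value in HCT116 for 313 (2.36%) and in Hke3 for 238 (1.80%). Of the 2113 genes changed in HCT116, 341 passed this test (16.1%), which is 61.9% of the 551. A total of 324 genes passed in both lines, 263 of them with the same sign. In Hke3 too, 11 of the 25 replication genes and 5 of the 24 mitosis genes fell and 0 rose. Their Hke3 medians were -0.28 and -0.24 log2. Of the 9 heat shock chaperones only HSPH1 fell there (-0.61), with a list median of -0.081 log2. The difference between the lines passed for 1 replication gene, 1 mitosis gene of each sign and 0 heat shock genes. RNA quality differed between the lines too, as the 3' minus 5' difference of ACTB was 0.16 to 0.30 log2 in the HCT116 arrays and 0.56 to 0.94 log2 in the Hke3 arrays, and its part in the difference was not tested.

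Part of each stress list differed between the lines. The signed change was larger in HCT116 for 12 of the 25 ATF4 response genes and larger in Hke3 for 0, and the list's median in Hke3 was -0.23 log2. DDIT3 had 10.03 and 9.96 log2 in cocultured Hke3 and 9.83 and 9.96 log2 in Hke3 without coculture, a level that changed little across the Hke3 arrays (difference between the lines 1.67 ± 0.11, adjusted p = 0.00218). ASNS fell in Hke3 by 0.73 and PHGDH by 1.04 log2, neither of which passed in HCT116 (differences between the lines 0.83, adjusted p = 0.00686, and 1.02, adjusted p = 0.00365). Levels without coculture were not always alike in the 2 lines. DDIT3 had 8.68 and 8.83 log2 in HCT116 without coculture, under its Hke3 levels. ASNS had 13.70 and 13.59 log2 in HCT116 without coculture and 13.60 and 13.51 log2 in Hke3 without it. Of the transporters 5 of 10, of the synthetases 6 of 17, of the ER genes 7 of 22 and of the p53 targets 6 of 17 had the larger value in HCT116, and 0 of each had it in Hke3. These differences hold falls in Hke3 as well as rises in HCT116. In Hke3, 8 ATF4 response genes, 6 transporters, 4 synthetases, 2 ER genes and 2 p53 targets fell. Only 1 gene of these lists, an ATF4 response gene, rose there, and 405 of all 13246 genes fell. IL20RB had 6.24 and 6.13 log2 in cocultured Hke3 and 7.15 and 6.71 log2 in Hke3 without coculture (-0.75), so its changes were opposite in the 2 lines (2.37 ± 0.17, adjusted p = 0.00218). NIBAN1, a stress-induced regulator of translation, rose in HCT116 (1.17) and fell in Hke3 (-0.79).

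The glycolysis and hypoxia-inducible genes that differed between the lines had the larger signed change in Hke3. Of 21 glycolysis genes tested, from 22 listed, 1 rose in HCT116, the aldolase ALDOC (0.50), and 17 rose in Hke3 (4.05% of all genes did), with medians of 0.034 log2 in HCT116 and 0.57 log2 in Hke3. The glucose transporters SLC2A1 (0.39) and SLC2A3 (0.30), the kinase PDK1 (0.32) and the isomerase GPI (0.25) did not pass in HCT116. Of 20 other targets of the hypoxia-inducible factor tested, from 22 listed, 5 rose and 1 fell in HCT116 and 18 rose in Hke3, with medians of 0.22 log2 in HCT116 and 1.18 log2 in Hke3. In HCT116 these were the stress-responsive NDRG1 (0.99), the collagen-crosslinking LOXL2 (0.80), the angiogenic factor VEGFA (0.55), the prolyl hydroxylase subunit P4HA2 (0.44) and MXI1, an antagonist of MYC (0.36); EGLN1, which marks the hypoxia-inducible factor for degradation and was chosen after its values were seen, fell (-0.35). NDRG1 had 11.09 and 11.71 log2 in coculture and 10.51 and 10.31 log2 without it, and the array labelled with vitamin D3 was the higher of the cocultured ones for all 6 of these genes. Without each HCT116 array in turn, 0 to 2 of the glycolysis genes and 0 to 5 of the other targets rose in HCT116. The HCT116 median of the other targets was 0.047 log2 in the pair without vitamin D3 and 0.44 log2 in the pair with it. It was 0.081 without the coculture with vitamin D3, 0.10 without HCT116 with vitamin D3, 0.37 without HCT116 alone and 0.38 log2 without the coculture alone, and that of glycolysis lay between -0.036 and 0.12 log2. The difference between the lines passed for 9 glycolysis and 13 other genes, all with the larger value in Hke3. VEGFA alone of the 20 had the larger value in HCT116 (0.55, against 0.18 in Hke3), a difference that did not pass (adjusted p = 0.23). Examples that passed are PFKFB4, which regulates glycolysis (-0.12 in HCT116 and 1.63 in Hke3), ANKRD37 (0.33 and 2.45), ANGPTL4, an inhibitor of lipoprotein lipase (0.25 and 1.99), and MIR210HG, the host gene of a hypoxia-induced microRNA (-0.067 and 1.37). SPRY1, an inhibitor of growth factor receptor signalling (-0.29 and 1.24), and PPFIA4, a liprin (-0.044 and 1.41), followed the same order of lines. The HCT116 size of PPFIA4 is approximate.

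Of 15 cholesterol synthesis genes tested, from 20 listed, INSIG1, which restrains sterol synthesis (-0.43), and the enzymes NSDHL (-0.43) and LSS (-0.28) fell in HCT116, and the kinase PMVK rose (0.29). The share that passed was 26.7%, against 16.0% of all genes tested. Other bright probe sets gave smaller falls, -0.26 log2 for NSDHL and -0.048 and -0.027 log2 for LSS. The list's median was -0.09 log2 in HCT116 and 0.31 log2 in Hke3, where 6 rose. The difference between the lines passed for 7, all with the larger value in Hke3, and without each HCT116 array in turn 0 or 1 of the 15 passed in HCT116 and their median lay between -0.14 and -0.040 log2. The 551 genes with a different change were 92 to 282 when each of the 8 arrays was left out in turn.

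**Figure D5:**
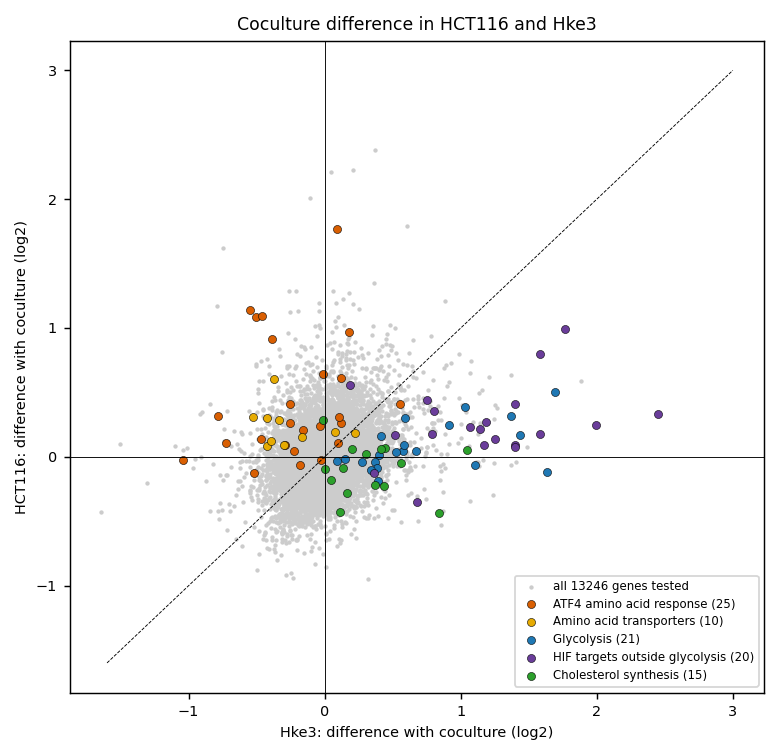
Difference with coculture in HCT116 (y axis) against that in Hke3 (x axis) for each of 13246 genes, as the mean of 2 pairs per line (log2), with the dashed line where both are equal. Most ATF4 response genes and amino acid transporters lie above the line, the 21 glycolysis genes below it, and most hypoxia-inducible and cholesterol synthesis genes below it too.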

How the data were processed

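The series measured RNA on 10 one-colour Affymetrix arrays, and the authors deposited log2 values per probe set, made with RMA through the R package affy per the submitters' processing notes; whether all arrays were normalised together is not given in the sources used here. Values lay between 2.98 and 15.2 log2, and array medians between 6.15 and 6.21. The precision is limited by the number of arrays. Of 54675 probe sets, 41097 had 1 gene symbol in the platform annotation, 1801 several and 11777 none. For each of 19775 genes, the probe set of highest mean over the 8 colon cancer arrays stood for the gene, and the 13246 genes whose highest value there exceeded 6.18 log2, the median of all values, were tested.

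One limma model (version 3.58.1, R 4.3.3) over the 8 arrays held terms for line, for coculture within each line and for vitamin D3, and left 3 residual degrees of freedom. The HCT116 contrast is the mean of its 2 pairs. Tests were two-sided with Benjamini-Hochberg adjustment over the 13246 genes and a threshold of 0.05. Differences are with minus without coculture, and a difference between the lines is HCT116 minus Hke3. A size is called approximate where a group's mean lay under the filter. A bright probe set is one that passed the same filter.

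The 26 gene lists, with 467 genes of which 34 are not analysed here, and the members were chosen with earlier results of these data known. The rule for named genes took the 14 largest rises and 14 largest falls past the threshold with 1 sign in both pairs, the 6 largest differences between the lines of each sign, and up to 5 members of each list, those past the threshold first. It always took VDR, CYP24A1 and ATF4, and 1 further gene not analysed here. Alternatives were the 4 HCT116 arrays alone, no vitamin D3 term, all two-way interactions, no filter or one at 8.14 log2 (the 75th percentile), averaging the probe sets of each gene, median-centred arrays, cyclic loess, trend and robust fitting, a minimum of 1.5-fold, and leaving out each array. Promoters came from RefSeq (GRCh38.p14). Plots used matplotlib 3.10.9 (Python 3.11.15).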

Additional observations from a re-analysis of the deposited data

Results flagged for a closer look

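The change with coculture differed between HCT116 and Hke3 for 551 of 13246 genes by the test of the difference itself (limma, adjusted p under 0.05), and the genes named in the text that passed are given here as HCT116 minus Hke3 on the log2 scale, with no explanation weighed. Among the largest rises in HCT116, the difference was 2.37 for IL20RB, 2.16 for CLGN, 2.12 for LURAP1L, 2.02 for LAMP3, 2.01 for NRP1, 1.55 for SLFN5, 1.503 for IFRD1, 1.22 for ABCC3, 1.19 for ARRDC4, 1.10 for ANKRD29, 1.09 for GTPBP2 and 0.99 for SMIM14. NIBAN1 differed by 1.96. In the ATF4 response it was 1.69 for SESN2, 1.67 for DDIT3, 1.59 for CHAC1, 1.55 for TRIB3, 1.31 for CEBPG, 1.02 for PHGDH, 0.83 for ASNS, 0.66 for ATF4 and 0.65 for CEBPB. Among transporters and synthetases it was 0.98 for SLC7A11, 0.84 for SLC1A4, 0.72 for SLC3A2, 0.62 for SLC7A1, 0.97 for SARS1, 0.62 for AARS1 and 0.51 for IARS1. Among ER genes it was 1.01 for ATF6, 0.79 for HYOU1, 0.78 for HERPUD1, 0.72 for SEL1L and 0.57 for XBP1.

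Among p53 targets the difference between the lines was 0.99 for GDF15, 0.78 for TNFRSF10B, 0.67 for ZMAT3, 0.65 for CDKN1A and 0.61 for BAX, which fell in Hke3 and did not pass in HCT116. It was 0.98 for TWIST1, 0.92 for BTC, 0.76 for DUSP6, 0.75 for MAP1LC3B, 0.57 for ESRP1 and 0.51 for SOX9. TWIST1, and NRP1 above, entered the test only through the cocultured HCT116 arrays, where they were high. Their differences between the lines are approximate sizes and no independent support.

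The larger value lay in Hke3 for the genes that follow. Among hypoxia-inducible and glycolysis genes the difference was -2.12 for ANKRD37, -1.75 for PFKFB4, -1.74 for ANGPTL4, -1.19 for ALDOC, -1.05 for PDK1, -1.03 for EGLN1 and -0.79 for LOXL2. It was -1.53 for SPRY1, -1.45 for PPFIA4, -1.44 for MIR210HG and -0.64 for SEMA4B. In cholesterol synthesis it was -1.28 for INSIG1, -0.54 for NSDHL and -0.44 for LSS. Among genes that fell in HCT116 it was -1.26 for DKK1, -0.87 for RNA45SN5, -0.76 for PHF19, -0.74 for HNRNPDL, -0.71 for UNK, -0.63 for UBAP2L, -0.61 for ORC1, -0.59 for SLF1, -0.52 for CENPX and -0.51 for BUB1.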

How the results depend on the processing

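No paired analysis was possible because the labels number no replicates and each condition has 1 array; arrays were matched by the vitamin D3 label alone, through a term of the model, and without that term (no replicate block) the count of genes changed in HCT116 was 2308, against 2113. It was 1060 with the 4 HCT116 arrays alone, 1271 with no filter on dim genes and 6 at a minimum of 1.5-fold. It lay between 134 and 1881 when each of the 8 arrays was left out, with the 4 lowest counts on leaving out an HCT116 array. The count of genes that differed between the lines, 551, was 854 with all two-way interactions, 277 with no filter, 958 with the filter at the 75th percentile, 1168 with trend and robust fitting and 9 at a minimum of 1.5-fold. It lay between 92 and 282 when each array was left out. Among HCT116 arrays it was 103 on leaving out the untreated one, 148 the one with vitamin D3, 134 the coculture and 111 the coculture with vitamin D3; among Hke3 arrays it was 125, 92, 282 and 185 in the same order. The other settings kept both counts within 1.5 times, and cyclic loess turned 1017 higher and 1096 lower into 1277 and 939. Of the 125 named genes past the threshold in HCT116, 39 stayed past it without each HCT116 array in turn, as did 24 of the 28 with the largest changes, and 0 changed sign under any setting. The causes of these shifts were not tested.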
